A study of Homo sapiens with 6 samples.

Results

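The matrix metalloproteinases (MMPs), the ADAMTS proteases with their ADAMTS-like relatives (ADAMTSL) and the tissue inhibitors of metalloproteinases (TIMPs) were taken from the gene table by symbol. The symbols gave 45 of the 33900 genes in the table, made up of 21 MMP, 16 ADAMTS, 4 ADAMTSL and 4 TIMP genes. The data came from RNA sequencing of LX-2, a long-established human cell line derived from hepatic stellate cells, which produce and remodel the scar matrix of the liver. Wild-type LX-2 cells received 300 ng/ml recombinant human Sema3C (rhSema3C) for 48 h in 3 samples, and PBS for the same time in 3 control samples. Sema3C is a secreted semaphorin, and both groups were the same cell line in the same medium, so the treatment was their only labelled difference. The results describe 1 cell line, and the labels call the samples of a group biological replicates without saying whether cultures were started separately.

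MMPs are zinc-dependent enzymes that are made as inactive precursors and together cleave collagens, gelatin, laminin and many other matrix proteins. ADAMTS proteases are secreted, bind the matrix through thrombospondin repeats, and cleave proteoglycans, procollagens and clotting proteins, whereas the ADAMTS-like proteins carry the repeats but no protease domain. TIMPs bind the active site of MMPs and block them, and TIMP3 also inhibits several ADAMTS enzymes. In the fibrotic liver, stellate cells are a known source of both the proteases and TIMP1.

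The 250 bases before the transcript start are shown for some members of the inhibitor and ADAMTS groups, to set the sequence beside the change. They came from the RefSeq promoter table on GRCh38.p14, which held 26 of the 45 genes. It lacked 11 of the genes tested below, among them MMP1, MMP2, MMP3, TIMP2, ADAMTS1 and ADAMTS4. TIMP1 (chrX:47582186-47582435, plus strand) and TIMP3 (chr22:32801455-32801704, plus strand) fell with rhSema3C, as did ADAMTS12 (chr5:33891991-33892240, minus strand), and ADAMTS14 (chr10:70672256-70672505, plus strand) rose. Capitals mark the single exact match to the AP-1 letters TGANTCA, which lay in ADAMTS12. Near matches, such as TGAGTAA in TIMP1, were not searched for or marked, so an unmarked sequence may still hold an AP-1 site.
TIMP1: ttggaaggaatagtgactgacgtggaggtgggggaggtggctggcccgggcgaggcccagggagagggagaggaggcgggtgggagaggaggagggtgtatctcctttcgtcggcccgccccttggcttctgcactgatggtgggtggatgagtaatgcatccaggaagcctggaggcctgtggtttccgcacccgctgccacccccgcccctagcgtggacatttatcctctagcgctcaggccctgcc
TIMP3: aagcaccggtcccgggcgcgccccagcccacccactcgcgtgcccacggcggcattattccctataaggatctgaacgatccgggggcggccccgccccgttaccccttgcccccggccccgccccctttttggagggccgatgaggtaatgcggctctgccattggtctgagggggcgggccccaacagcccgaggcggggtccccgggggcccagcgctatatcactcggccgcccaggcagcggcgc
ADAMTS12: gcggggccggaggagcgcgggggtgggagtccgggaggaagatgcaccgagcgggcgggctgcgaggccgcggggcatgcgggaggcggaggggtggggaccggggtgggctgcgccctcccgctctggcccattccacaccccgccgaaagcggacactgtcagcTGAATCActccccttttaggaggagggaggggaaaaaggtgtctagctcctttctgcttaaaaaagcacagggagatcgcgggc
ADAMTS14: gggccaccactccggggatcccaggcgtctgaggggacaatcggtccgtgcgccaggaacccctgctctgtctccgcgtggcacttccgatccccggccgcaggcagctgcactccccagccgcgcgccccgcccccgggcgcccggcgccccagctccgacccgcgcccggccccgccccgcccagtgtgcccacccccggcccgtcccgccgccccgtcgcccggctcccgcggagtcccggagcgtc

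The motif search covered the 300 bases from 250 before to 50 after the start, on both strands except for the TATA box, which was read on the gene strand. TGANTCA was found in 3 of the 26 promoters, ADAMTS12 with its first base 84 bases before the start and MMP7 and MMP10 both at 67 bases, against 7.71% of all 35116 promoters in the table. The ETS letters AGGAAG were in 6 of 26, including TIMP1 and ADAMTS12, against 33.6% of all promoters. The TATA box letters TATAAA were in 4 of 26, against 7.33%, and in MMP7 and MMP10 they began 30 and 31 bases before the start. Of the 12 promoters whose genes were expressed highly enough to be tested, 1 held TGANTCA, 3 held AGGAAG and 0 held TATAAA. The start is that of the RefSeq transcript, and for 14 of the 26 it was the gene start given with the counts. For ADAMTS13, which held AGGAAG, it lay 8009 bases downstream of that gene start, and for ADAMTSL1 567590 bases. The promoters of TIMP3 and ADAMTS14 held none of these letters and were rich in G and C, at 72.7% and 79.7% of bases, against a median of 58.7% over all promoters. MMP7 and MMP10, at 35.7% and 36.3%, lay well under that median. These are matches of letters in a short window, and no binding was measured.

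The 6 samples held between 68267808 and 89245585 counts on genes. Values between samples are given as CPM (counts scaled to the size of each library, here after TMM normalisation), which sets the typical gene equal between samples, and levels between genes as FPKM, which corrects for transcript length. Genes with a mean of at least 0.5 FPKM were tested with edgeR's quasi-likelihood test, with p-values adjusted over all 14178 genes tested, and a gene was called changed at an adjusted p below 0.05. Of the 9 stellate cell and fibroblast markers checked, 5 reached this level, among them VIM and COL1A1, whereas COL1A2, DES, DCN and LRAT were at or near 0. Of the 5, 4 were lower with rhSema3C, and the stellate sum ran from 1146 to 1205 FPKM in PBS and from 908.3 to 968.2 in rhSema3C. The hepatocyte markers ALB and APOA1, the leukocyte markers PTPRC and CD163 and the biliary marker EPCAM were at or near 0 in both groups. The sums of the hepatocyte, endothelial, leukocyte and biliary markers stayed at or below 5.38 FPKM in every sample. Each of these 4 lists had a single gene with a mean of at least 0.5 FPKM over the 6 samples. Of those, SERPINA1 rose and CD14 fell, while the biliary KRT7 and the endothelial KDR were not called. Mean FPKM was 2.95 in PBS and 3.21 in rhSema3C for KRT7, and 0.723 and 0.720 for KDR. The endothelial marker VWF, under the filter, had a mean FPKM of 0.101 in PBS and 0.659 in rhSema3C, while PECAM1 and CDH5 were at or near 0, and the part of these genes in the results was not tested.

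Of the 45 genes, 23 passed the filter on low levels, comprising 9 MMP, 8 ADAMTS, 3 ADAMTSL and 3 TIMP genes. ADAMTS13 and ADAMTS14 passed through their level in rhSema3C, with mean FPKM of 0.362 and 0.352 in PBS. They had to differ to be tested, so their rises are no support for the counts below, which include them. Of the 23, 8 were higher with rhSema3C, where 31.7% of all genes tested were higher, and 12 were lower, where 30.6% were lower. Over 2-fold, 2 were higher, ADAMTS14 among them, against 3.31% of all genes, and 4 were lower, against 2.06%. The samples of both groups did not overlap for 20 of the 23, against 67.8% of all genes tested. The median log2 fold change was −0.19 over the 23 genes and 0.02 over all genes tested. All 3 TIMPs tested fell, and the MMPs held 1 rise and 5 falls. The ADAMTS genes held 2 falls and 6 rises, with ADAMTS13 and ADAMTS14 among the rises. In bulk RNA, fewer cells of a type and less RNA per cell cannot be told apart. The split of all calls depended on the scaling, with 50.9% of calls higher under TMM, 62.3% under library size alone and 74.1% under TPM, where the median of all genes stood at 0.13 and 0.23 in place of 0.02.

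**Figure D1:**
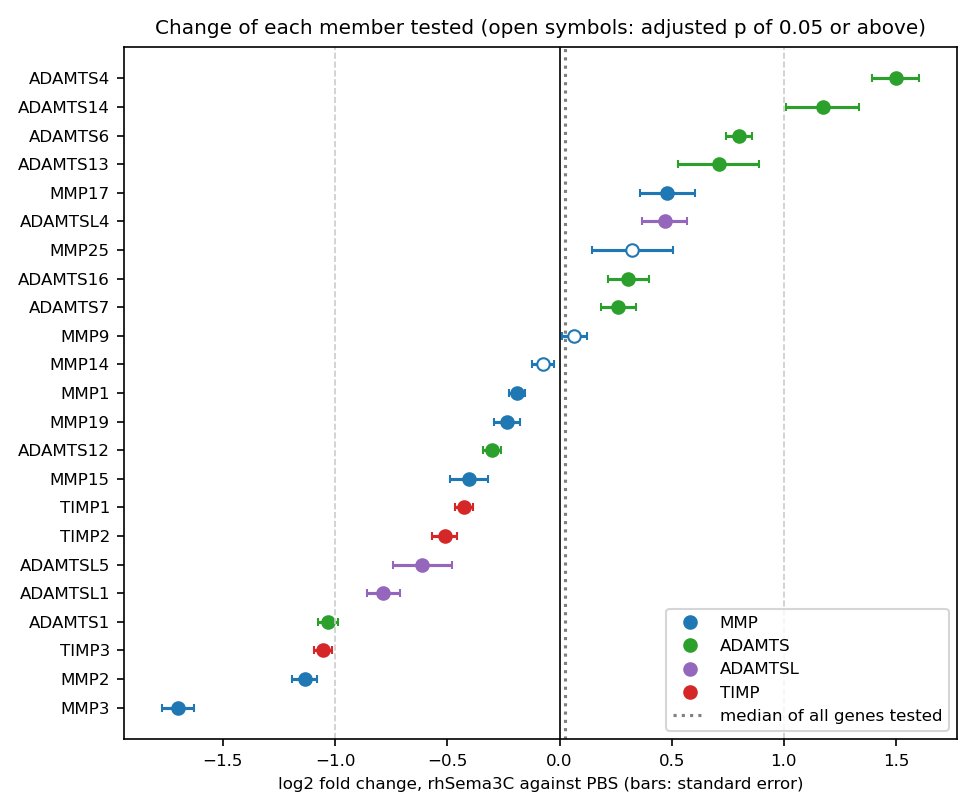
Log2 fold change (rhSema3C against PBS, edgeR) of each of the 23 genes tested, coloured by family, with bars for the standard error; open symbols mark an adjusted p of 0.05 or above and dashed lines 2-fold. The values run from −1.70 for MMP3 to 1.499 for ADAMTS4, with the 3 TIMPs (red) all left of 0 and MMP14, MMP9 and MMP25 as the open symbols.

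The levels of the 45 genes spanned a wide range. MMP1, the interstitial collagenase that opens the collagen triple helix, had a mean FPKM of 833 ± 18.6 in PBS (SD, n = 3) and ranked 23 among all 33900 genes by mean FPKM. TIMP1 followed at 230 ± 6.57 with rank 137, then TIMP2 at 116 ± 8.07 and MMP14 at 93.8 ± 3.12, neighbours that did not overlap in PBS. MMP3, TIMP3 and MMP9 came next in PBS, at 37.2 ± 0.788, 36.4 ± 0.283 and 33.1 ± 1.96, and the samples of MMP3 and TIMP3 overlapped. MMP1 alone made up 80.7% of the summed MMP FPKM in PBS and 81.9% in rhSema3C. ADAMTS12, which cleaves the cartilage protein COMP, made up 44.4% of the summed ADAMTS FPKM in PBS and 40.7% in rhSema3C.

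**Figure D2:**
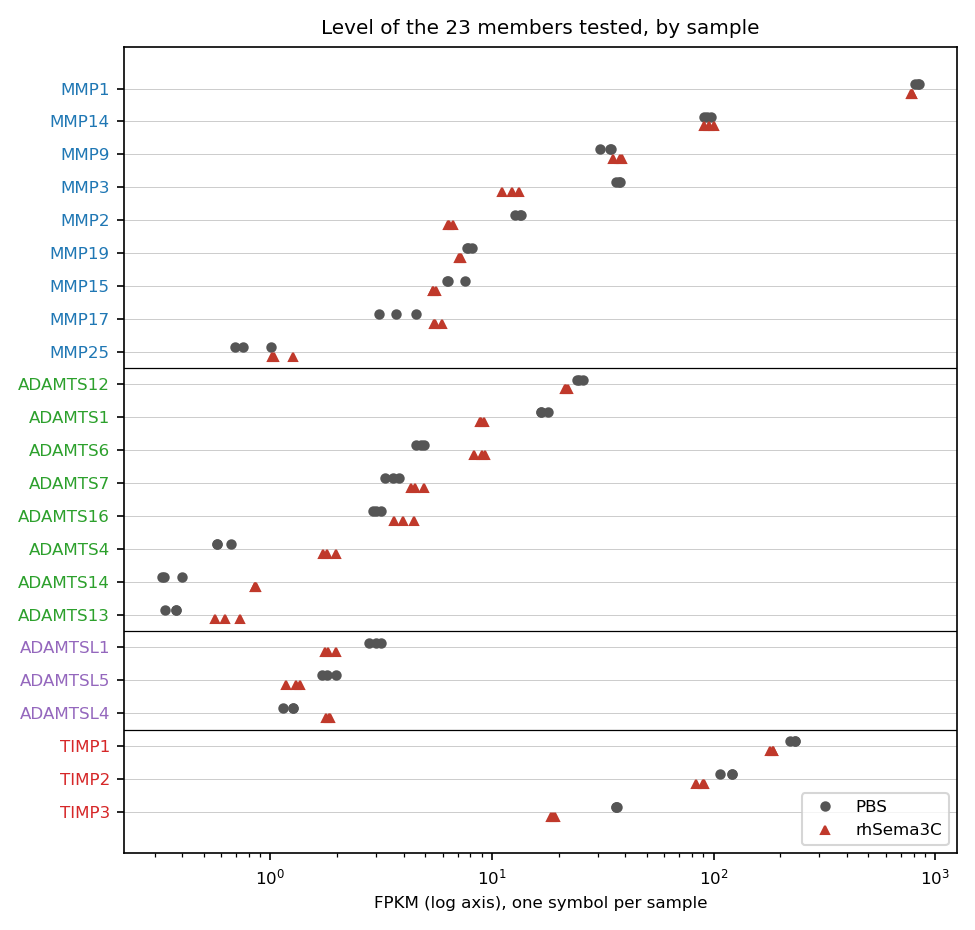
FPKM (log axis) of the 23 genes tested, grouped by family, with a symbol for each of the 3 PBS samples (grey circles) and the 3 rhSema3C samples (red triangles). MMP1, TIMP1, TIMP2 and MMP14 sit farthest to the right, and the symbols of TIMP3, MMP3, MMP2 and ADAMTS1 are clearly apart between groups.

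The inhibitors fell together. TIMP3, which binds to the matrix and inhibits ADAMTS enzymes as well as MMPs (ENSG00000100234, GRCh38 chromosome 22, 32801705 to 32863041), had 177, 181 and 178 CPM in PBS and 88.4, 86.0 and 83.6 CPM in rhSema3C. The groups were far apart, and TIMP3 was 2.08-fold lower (log2 fold change −1.05 ± 0.04, SE, n = 3 and 3, adjusted p = 6.1e-09, edgeR's quasi-likelihood test). TIMP2, which both inhibits MMP2 and takes part in its activation on MMP14 (chromosome 17, 78852977 to 78922401), had 642, 732 and 725 CPM in PBS and 508, 499 and 463 in rhSema3C. The lowest PBS sample still lay above the highest rhSema3C sample, and the log2 fold change was −0.51 ± 0.06 (adjusted p = 1.4e-05, edgeR). TIMP1, the inhibitor long used as a serum marker of liver fibrosis (chromosome X, 47582408 to 47586789), had 359, 345 and 359 CPM in PBS and 267, 267 and 257 in rhSema3C. Its samples were tightly grouped on both sides, and it was 1.34-fold lower (log2 fold change −0.43 ± 0.04, adjusted p = 3.9e-06, edgeR). The 3 genes stayed lower and called under all 16 alternative settings, the highest adjusted p being 0.0051 for TIMP2. TIMP4 was not tested, with 8 counts in PBS replicate 3 and 0 in the other 5 samples.

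The TIMP1 and TIMP3 genes sit inside synapsin genes on the opposite strand, and SYN1 and SYN3 had at most 58 and 13 counts in any sample. Whether counting used strand is not given in the sources used here, so reads of overlapping genes cannot be told apart. Summed over the family, TIMP FPKM was 382.8 ± 7.87 in PBS and 290.2 ± 7.76 in rhSema3C, and TIMP1 supplied 60.1% and 63.3% of it. Within the sum, TIMP3 lost ground to TIMP1, since the ratio of TIMP3 to TIMP1 FPKM went from 0.159 ± 0.0057 to 0.103 ± 0.0016.

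Among the 9 MMPs tested, the stromelysin MMP3 had the largest fold change. MMP3 cleaves proteoglycans, fibronectin and laminin and activates other pro-MMPs (ENSG00000149968, chromosome 11, 102835801 to 102843609). It had 74.6, 72.2 and 73.6 CPM in PBS and 24.6, 22.8 and 20.5 CPM in rhSema3C. The groups were separated by a wide gap, and MMP3 was 3.25-fold lower (log2 fold change −1.70 ± 0.07, adjusted p = 9.9e-09, edgeR's quasi-likelihood test). The other stromelysins stayed under the filter, MMP10 with 11, 12 and 29 counts in PBS and 10, 23 and 15 in rhSema3C, and MMP11, which furin activates inside the cell, with 124 to 242 counts.

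The gelatinases MMP2 and MMP9, which cleave denatured collagen and basement membrane collagen, differed in their change. MMP2 (ENSG00000087245, chromosome 16, 55389700 to 55506239) had 63.9, 68.4 and 66.6 CPM in PBS and 31.1, 29.9 and 29.5 in rhSema3C. All rhSema3C samples were low, and MMP2 was 2.20-fold lower (log2 fold change −1.14 ± 0.06, adjusted p = 3.3e-08, edgeR). MMP9 (chromosome 20, 46008908 to 46016561) had 76.7, 85.7 and 85.1 CPM in PBS and 89.8, 81.6 and 87.5 in rhSema3C. These samples overlapped, and the log2 fold change was 0.07 ± 0.06, with a 95% interval of −0.04 to 0.18 (adjusted p = 0.33, edgeR). The call for MMP9 turned on the scaling, since it was higher under library size alone (log2 fold change 0.17, adjusted p = 0.017), on the FPKM scale with 1 added (0.16, adjusted p = 0.029) and under TPM (0.29, adjusted p = 0.0041), where the median of all genes was also above 0. It was also higher when only genes of at least 5 FPKM were fitted (0.17, adjusted p = 0.016), where that median was −0.0013. MMP9 was called in 5 of its 16 alternatives.

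MMP1, the only collagenase tested (ENSG00000196611, chromosome 11, 102789919 to 102798160), changed far less than MMP3. It had 1762, 1717 and 1773 CPM in PBS and 1546, 1547 and 1514 in rhSema3C. The groups did not overlap, and the log2 fold change was −0.19 ± 0.04 (adjusted p = 7.1e-04, edgeR), a fall that turned to 0.04 under TPM and lost its call under library size alone (−0.08, adjusted p = 0.059). Relative to the median of all genes in each fit, MMP1 was lower in all 16 alternatives, by between −0.23 and −0.08 on the log2 scale. The other collagenases were near 0, with 32 to 65 counts for MMP8 and at most 20 counts for MMP13.

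Of the membrane-type MMPs, which sit on the cell surface, MMP14 is the main activator of pro-MMP2 and cleaves collagen itself (chromosome 14, 22836560 to 22849027). It had 432, 445 and 460 CPM in PBS and 447, 401 and 421 in rhSema3C. The samples overlapped, the log2 fold change was −0.08 ± 0.05 with a 95% interval of −0.17 to 0.02 (adjusted p = 0.20, edgeR), and its sign turned to 0.15 under TPM, where it was called (adjusted p = 0.031). Relative to the median of all genes in each fit, MMP14 was lower in 15 of 16 alternatives, with values between −0.14 and 0.03. MMP15, a transmembrane relative, fell (−0.41, adjusted p = 0.0015, edgeR) and lost this call under TPM (−0.16, adjusted p = 0.11). MMP17, held to the membrane by a lipid anchor, rose (0.48, adjusted p = 0.0053), and its PBS samples were widely spread, from 13.3 to 19.5 CPM. MMP25, the other lipid-anchored member, had a log2 fold change of 0.32 ± 0.18 (adjusted p = 0.14, edgeR), with samples that overlapped in CPM but not in FPKM. It was called without PBS replicate 2 (0.50, adjusted p = 0.034, edgeR) and under TPM (0.43, adjusted p = 0.030, limma), where the median of all genes was also above 0. MMP25-AS1 overlaps it on the opposite strand by 12803 bases, with 337 to 659 counts and a log2 fold change of 0.31 (adjusted p = 0.076, edgeR). MMP16 and MMP24 were under the filter, with 318 to 638 and 76 to 131 counts. MMP19, a secreted member, fell slightly (−0.23, adjusted p = 0.0048, edgeR), a call lost under library size alone (−0.13, adjusted p = 0.080), among genes of at least 5 FPKM (−0.13, adjusted p = 0.077) and under TPM (−0.01, adjusted p = 0.91).

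MMP1 and MMP3 are neighbours in the MMP gene cluster on chromosome 11, where 7 genes of the family in the table lie and the gap between MMP1 and MMP3 is 37.6 kb. The ratio of MMP3 to MMP1 FPKM, which is free of scaling between samples, was 0.045 ± 0.00043 in PBS and 0.016 ± 0.0013 in rhSema3C (mean ± SD, n = 3). MMP12, the macrophage elastase next to MMP3, had 23, 15 and 4 counts in PBS and 0 in all 3 rhSema3C samples. In the fit with no filter MMP12 was called lower (adjusted p = 0.015, edgeR), but such low counts rest on very few fragments. MMP7, the matrilysin at the other end of the cluster, had 72, 55 and 47 counts in PBS and 100, 97 and 107 in rhSema3C, a log2 fold change of 0.56 that was not called (adjusted p = 0.16, edgeR, no filter). The cluster thus held a large fall, a small one and genes at low counts.

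**Figure D3:**
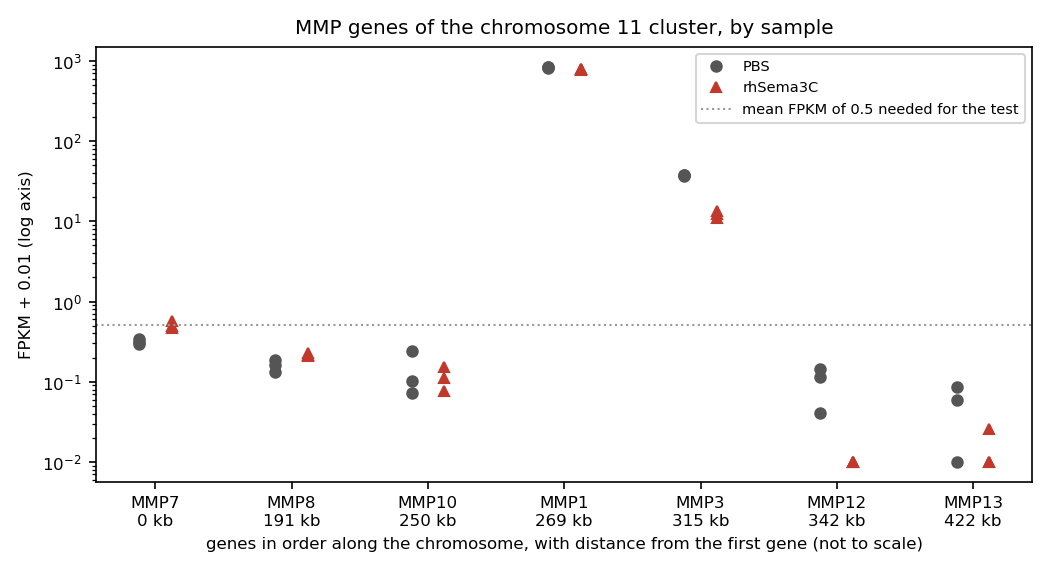
FPKM with 0.01 added (log axis) of the 7 MMP genes of the chromosome 11 cluster in gene order, with PBS samples as grey circles and rhSema3C samples as red triangles; the dotted line is the mean of 0.5 FPKM needed for the test. MMP1 and MMP3 are the only genes above the line on average, and the gap between groups is visible for MMP3, with MMP12 at 0 in all 3 rhSema3C samples.

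Of the 8 ADAMTS proteases tested, 6 rose and 2 fell, and the rises include ADAMTS13 and ADAMTS14, which passed the filter through rhSema3C alone. ADAMTS4, an aggrecan-cleaving proteoglycanase (ENSG00000158859, chromosome 1, 161184302 to 161199054), had 6.32, 7.36 and 6.31 CPM in PBS and 18.5, 17.8 and 20.2 in rhSema3C. The groups lay a wide margin apart, and ADAMTS4 was 2.83-fold higher (log2 fold change 1.499 ± 0.10, adjusted p = 4.2e-07, edgeR's quasi-likelihood test).

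ADAMTS1, a proteoglycanase that also cleaves versican (ENSG00000154734, chromosome 21, 26835755 to 26845409), went down. It had 126, 126 and 134 CPM in PBS and 64.5, 61.7 and 62.2 in rhSema3C. The groups were well apart, and ADAMTS1 was 2.05-fold lower (log2 fold change −1.03 ± 0.04, adjusted p = 1.4e-08, edgeR). Its neighbour ADAMTS5, a potent aggrecanase 72.5 kb away, was under the filter with 336, 345 and 264 counts in PBS and 257, 330 and 298 in rhSema3C (log2 fold change −0.36, adjusted p = 0.18, edgeR, no filter). ADAMTS9, another proteoglycanase, was also under the filter and is singled out here after its values were seen. It had 104, 79 and 83 counts in PBS and 371, 258 and 338 in rhSema3C, all well apart (log2 fold change 1.62 ± 0.21, adjusted p = 3.8e-04, edgeR, no filter). The proteoglycanases thus held members on both sides of 0.

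ADAMTS14 belongs to the procollagen N-proteinases, which trim the amino end of fibrillar procollagens so that fibrils can form (ENSG00000138316, chromosome 10, 70672506 to 70762441). It had 2.36, 2.0 and 1.93 CPM in PBS and 4.78, 4.70 and 4.72 in rhSema3C. The rhSema3C samples were nearly equal, and the log2 fold change was 1.17 ± 0.16 (adjusted p = 8.0e-05, edgeR). ADAMTS14 was tested only because its level in rhSema3C brought the mean over the filter, so this p is given as a description, and in the fit with no filter the log2 fold change was 1.16 (adjusted p = 4.7e-04, edgeR). Its relative ADAMTS2 had 153 to 164 counts in PBS and 219 to 366 in rhSema3C, without overlap but not called in the fit with no filter (log2 fold change 0.67, adjusted p = 0.065, edgeR), and ADAMTS3 overlapped between groups.

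ADAMTS6, an ADAMTS known from heart development that interacts with fibrillin microfibrils (ENSG00000049192, chromosome 5, 65148738 to 65481920), had 43.6, 41.8 and 44.7 CPM in PBS and 70.5, 79.2 and 76.8 in rhSema3C. With both groups tight, ADAMTS6 was 1.74-fold higher (log2 fold change 0.80 ± 0.06, adjusted p = 5.0e-07, edgeR). ADAMTS13, the protease that cuts von Willebrand factor and is made in the liver mainly by stellate cells (ENSG00000160323, chromosome 9, 133414358 to 133459386), had 2.30, 2.07 and 2.30 CPM in PBS and 4.18, 3.54 and 3.18 in rhSema3C. The groups did not overlap at this low level, and the log2 fold change was 0.71 ± 0.18 (adjusted p = 0.0050, edgeR). Like ADAMTS14, ADAMTS13 passed the filter through its level in rhSema3C alone, and with no filter its log2 fold change was 0.70 (adjusted p = 0.015, edgeR). REXO4, which overlaps ADAMTS13 on the opposite strand by 3739 bases, had a log2 fold change of −0.58.

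Smaller changes were seen for the COMP-cleaving pair, with ADAMTS12 down (−0.30, adjusted p = 5.9e-05, edgeR) and ADAMTS7 up (0.26, adjusted p = 0.012), and for ADAMTS16, which rose (0.31, adjusted p = 0.012). The call for ADAMTS7 was lost without PBS replicate 1 (adjusted p = 0.052) or rhSema3C replicate 3 (adjusted p = 0.065), and that for ADAMTS16 without rhSema3C replicate 1 (adjusted p = 0.062, edgeR). ADAMTS12 lost its call under TPM (−0.07, adjusted p = 0.18). ADAMTS7 has pseudogene copies and overlaps MORF4L1, so its counts are uncertain.

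Of the ADAMTS-like genes, some of whose products bind fibrillin microfibrils without cutting them, 2 fell and 1 rose. ADAMTSL1 (ENSG00000178031, chromosome 9, 17906563 to 18910950) had 40.1, 45.8 and 42.8 CPM in PBS and 26.6, 24.5 and 23.6 in rhSema3C, and was 1.72-fold lower (log2 fold change −0.79 ± 0.07, adjusted p = 3.9e-06, edgeR). ADAMTSL5 (ENSG00000185761, chromosome 19, 1505022 to 1513556) had 6.60, 7.77 and 6.95 CPM in PBS and 4.28, 4.94 and 4.72 in rhSema3C, a log2 fold change of −0.61 ± 0.13 (adjusted p = 0.0018, edgeR). Neither gene overlapped between groups. ADAMTSL4 rose (0.47, adjusted p = 0.0019, edgeR), and ADAMTSL3 was under the filter with 22 to 52 counts.

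The remaining genes under the filter were low. ADAMTS10 had 124 to 238 counts, ADAMTS15 had 53 to 85, ADAMTS17 had 0 to 62, and ADAMTS18 had 8 counts in PBS replicate 3 alone. MMP21 had 14 to 35 counts, MMP28 had 0 to 35, and the near-identical copies MMP23A and MMP23B, between which reads can be split, had 9 to 31 and 13 to 24. Of the 22 genes under the filter, ADAMTS9 and MMP12 were the only ones called in the fit with no filter. Over all 33900 genes of that fit, at any level, 4245 were higher and 4174 lower. The share called among genes under the filter alone was not computed, so nothing is read from the number of genes called here.

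Direction ran along with level. Of the 10 tested genes with a mean FPKM from 0.5 to 5, 7 were higher and 2 lower, where 34.1% of all 7207 genes of that band were higher and 16.1% lower. Without ADAMTS13 and ADAMTS14, which entered the band through their level in rhSema3C, 5 of 8 were higher. Of the 5 from 5 to 20 FPKM, 1 was higher and 4 lower, against 32.0% and 39.2% of 4653 genes. Of the 8 genes from 20 FPKM up, none was higher and 6 were lower. In the band from 20 to 100 FPKM 23.8% of 1978 genes were higher and 58.0% lower, and among the 340 genes at 100 FPKM and above, where MMP1, TIMP1 and TIMP2 lie, 22.1% were higher and 60.0% lower. The median log2 fold change of all genes went from 0.16 in the lowest band to −0.25 in the highest, close to the −0.19 of MMP1, whereas TIMP1 at −0.43 and TIMP2 at −0.51 lay below it. The part that level has in these calls was not tested.

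**Figure D4:**
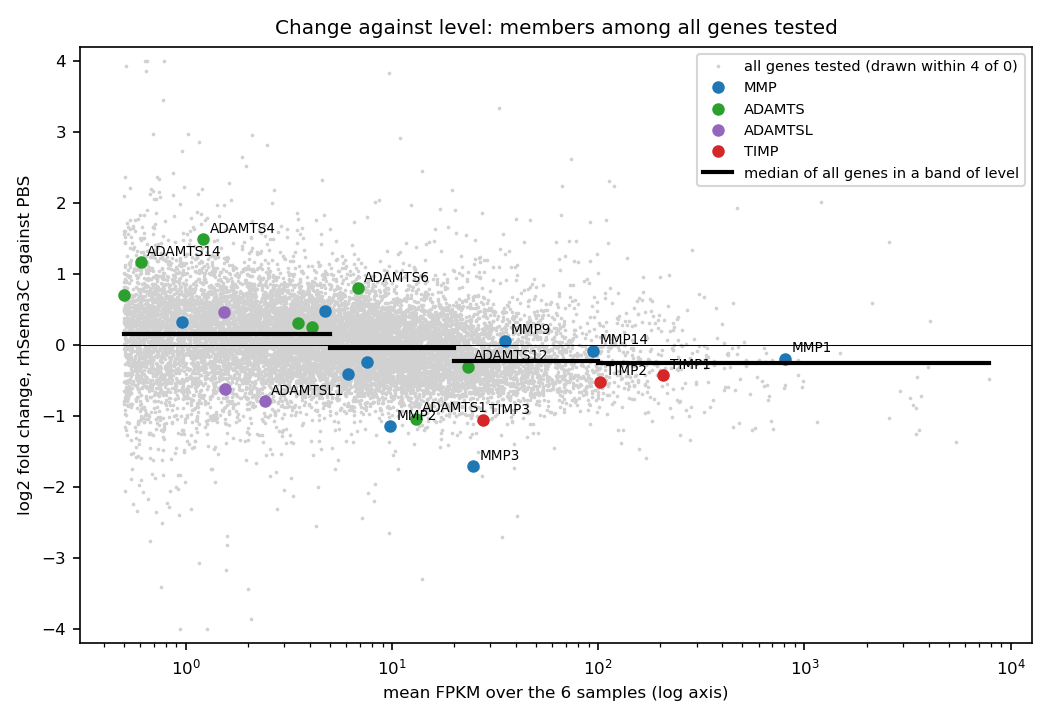
Log2 fold change against mean FPKM over the 6 samples (log axis) for all genes tested (grey, drawn within 4 of 0) and the 23 genes described here (coloured by family); black bars are the median of all genes in a band of level. ADAMTS4, ADAMTS14 and ADAMTS6 lie above the bars, and MMP3, MMP2, TIMP3 and ADAMTS1 lie lowest among the 23 genes.

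Proteases were then set against inhibitors within each sample, where any scaling between samples cancels. The summed MMP FPKM was 2.74, 2.66 and 2.68 times the summed TIMP FPKM in PBS and 3.28, 3.25 and 3.37 times in rhSema3C. The ratio was higher in all 3 rhSema3C samples, at 3.30 ± 0.063 against 2.70 ± 0.042 (SD, n = 3), a difference of 0.29 on the log2 scale. No p-value is given for such a sum, and 3 samples against 3 could not reach an exact two-sided p below 0.1. On the numerator's side, summed MMP FPKM was 1032 ± 18.9 in PBS and 958.1 ± 10.0 in rhSema3C, and on the TPM scale it was 3538 ± 79.9 and 3582 ± 29.2, overlapping between groups. The TIMP sum was lower on both scales, at 1313 ± 43.5 and 1085 ± 24.0 TPM. MMP1 and TIMP1 were the largest parts of these sums and their own ratio went from 3.62 ± 0.026 to 4.27 ± 0.038, and the difference between groups was 0.20 on the log2 scale without MMP1 and 0.41 without TIMP1.

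Single pairs went in both directions. The ratio of MMP14 to TIMP2 rose from 0.807 ± 0.041 to 1.09 ± 0.069, that of MMP14 to TIMP3 from 2.57 ± 0.083 to 5.07 ± 0.23, and that of MMP9 to TIMP1 from 0.144 ± 0.011 to 0.203 ± 0.012. MMP2 to TIMP2 went down from 0.114 ± 0.0048 to 0.074 ± 0.0023, and MMP3 to TIMP1 from 0.162 ± 0.0017 to 0.067 ± 0.0050. The summed ADAMTS FPKM was 56.0 ± 1.88 in PBS and 53.2 ± 0.615 in rhSema3C, while its ratio to TIMP3, the TIMP that inhibits several ADAMTS enzymes, was 1.54 ± 0.051 and 2.83 ± 0.092. The ratio of ADAMTS4 to TIMP3 went from 0.017 ± 0.0013 to 0.097 ± 0.0086. The mRNA ratios do not measure active enzyme, which also depends on secretion and precursor cleavage.

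**Figure D5:**
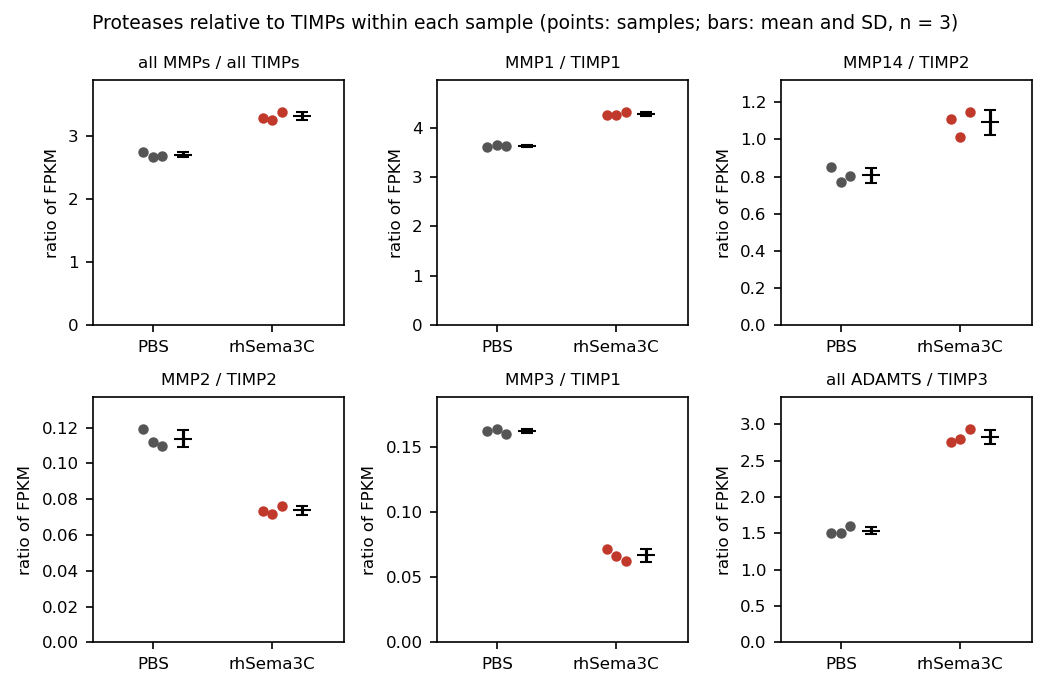
Ratios of FPKM within each sample (points) with mean and SD of the 3 samples of a group (bars), for PBS and rhSema3C; all axes start at 0. The ratios of all MMPs to all TIMPs, MMP1 to TIMP1, MMP14 to TIMP2 and all ADAMTS to TIMP3 are higher in every rhSema3C sample, whereas MMP2 to TIMP2 and MMP3 to TIMP1 are lower.

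Partners and regulators of these enzymes were read from a list of 39 genes, of which 30 were tested. Of these 8 were higher and 14 lower, with 1 and 3 over 2-fold, and the median log2 fold change was −0.12. Over all genes tested 31.7% were higher and 30.6% lower, and from 5 FPKM up 45.6% were lower, so nothing is read from these counts or from those of the smaller groups. Plasminogen activation, through which plasmin activates several pro-MMPs, held 1 rise and 4 falls among 6 genes. PLAU, the urokinase that makes plasmin, fell from 196.5 ± 4.57 to 80.5 ± 1.44 CPM (log2 fold change −1.29 ± 0.04, adjusted p = 1.3e-09, edgeR). Among 11 tested cell-surface and secreted regulators, 2 rose and 6 fell. TLL1, a procollagen C-proteinase of the tolloid family, fell from 7.23 ± 1.40 to 2.16 ± 0.119 CPM (−1.74 ± 0.17, adjusted p = 6.0e-06, edgeR). THBS1, a matrix glycoprotein that binds MMP2 and activates latent TGF-β, fell from 112.7 ± 14.4 to 46.8 ± 6.02 CPM (−1.27 ± 0.10, adjusted p = 1.4e-06, edgeR). Of 8 tested ADAM genes, which encode membrane-bound relatives of ADAMTS, 3 rose and 3 fell. ADAM17, the sheddase that releases TNF and which TIMP3 inhibits, rose from 21.8 ± 2.01 to 46.3 ± 2.25 CPM (1.09 ± 0.08, adjusted p = 5.3e-07, edgeR). Of the 5 collagen-degrading cathepsins, 2 rose and 1 fell.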

How the data were processed

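RNA was measured in 6 LX-2 samples, grouped as 3 rhSema3C and 3 PBS by the labels. The authors sequenced on an Illumina NovaSeq instrument and computed differential expression with Cufflinks and cuffmerge, at a fold above 2 and p below 0.05. The authors deposited a table of expected counts per gene, not normalised and given as whole numbers, and FPKM values, which they scaled to transcript length and library size. Among these, 7041 values equal 4, against 3436 equal to 3 and 2627 equal to 5, so a fragment may add several counts. The aligner, counting tool, strand setting and build are not given in the sources used here. Coordinates are those of the table, and all 45 IDs are in GENCODE 29 (GRCh38), 11 with the same start and end.

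A mean FPKM of 0.5 or more was required, and genes were tested with edgeR 4.0.16 (glmQLFit and glmQLFTest, TMM factors) in R 4.3.3, with Benjamini-Hochberg adjustment over 14178 genes and thresholds of 0.05 and 2-fold. Intervals are at 95% by a normal approximation from the log2 fold change and its SE, which makes them somewhat narrower than the edgeR test would give. TMM factors were between 0.958 and 1.04. Alternatives used DESeq2 1.42.0, limma 3.58.1 on log2(FPKM + 1), log2(FPKM + 0.1) and log2(TPM + 1), other size factors, no filter, a mean FPKM of at least 5, the replicate number as a block, and leaving out 1 sample at a time, and counts divided by 4 were added after the data were seen. Plots used matplotlib 3.10.9.

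The members, lists and tests were chosen with earlier results of these data known. Values for each sample are given for the TIMPs, MMP1, MMP2, MMP3, MMP9, MMP14 and members called with an absolute fold above 1.5, and pathway genes are named when called over 2-fold. P-values measure only the spread between these samples. No molecular identifiers were used, so counts are not molecules. No sample column was left unused.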

Additional observations from a re-analysis of the deposited data

How the results depend on the processing

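Of 358 values of single genes under 16 alternatives, 335 kept their direction and side of the threshold, 10 lost the call, 7 gained one and 6 changed sign. The sign changes were MMP1 under TPM (0.038) and MMP14 under library size alone (0.034), log2(FPKM + 1) (0.026), log2(FPKM + 0.1) (0.026), TPM (0.15) and a mean FPKM of at least 5 (0.030). The first 4 of these fits for MMP14 and that for MMP1 raise the median of all genes, to between 0.09 and 0.23, and both genes stayed below it there. Members higher numbered 2 with a mean FPKM of at least 5, where 13 members were tested, which leaves out most of the genes that rose. Members higher over 2-fold numbered 0 with log2(FPKM + 1) and with at least 5 FPKM, and 1 under TPM. Members lower over 2-fold numbered 2 under library size alone, log2(FPKM + 0.1) and at least 5 FPKM, and 1 with log2(FPKM + 1) and under TPM, and the cause was not tested. The MMP to TIMP difference was 0.35 with summed counts, 0.20 without MMP1 and 0.41 without TIMP1. With each sample left out in turn, members higher ranged from 7 to 9, members lower stayed at 12, and the MMP to TIMP difference ranged from 0.28 to 0.31. In the fit with the replicate block, 8 members were higher and 12 lower, 2 and 4 over 2-fold, and over all genes 4221 were higher and 4120 lower. Same-numbered samples did not deviate together (correlations −0.09, −0.08 and −0.04). Such correlations cannot tell whether same-numbered samples were grown or handled together, so pairing was not settled. Counts divided by 4, added after the data were seen, gave 8 higher and 12 lower. Genes with few counts, such as MMP12, MMP13 and TIMP4, are limited by depth.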
